A study of Mus musculus with 4 samples.

Results

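A group of 10 genes that act at the inner face of the B cell receptor was followed, namely the kinases Blk, Lyn, Fyn, Syk and Btk, the adaptors Blnk and Bank1, the lipase Plcg2, the exchange factor Vav1 and the phosphatase Ptpn6. They were taken by their names in the gene column of the scanner files, which made 10 of the 28307 genes or names on the array, measured by 16 probes on 34 spots. RNA came from B220 B cells, cells positive for a form of the surface phosphatase CD45 known as B220, freshly isolated from naive mice. There were 4 groups, each measured on 1 Agilent 1-colour array labelled with Cy3. These were bone marrow cells of the strain labelled Mef2c KO (marrow KO), marrow cells of C57BL/6 mice (marrow WT), spleen cells of Mef2c KO mice (spleen KO) and spleen cells of C57BL/6 mice (spleen WT). The series title speaks of a deficiency of Mef2c induced in the bone marrow. The sources used here do not give the number, age or sex of the animals, the way cells were isolated, the deleted part of Mef2c, what drives the deletion or the strain background of the KO. With 1 array a group, differences inside a tissue stand without replicates, and precision is limited by how few arrays there are.

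When the B cell receptor binds antigen, Src family kinases (Lyn, Blk and Fyn) phosphorylate tyrosine motifs in the receptor's signalling chains, and Syk docks there and becomes active. Syk phosphorylates the adaptor Blnk, which brings Btk and Plcg2 together, and Plcg2 then makes the second messengers that release calcium and activate protein kinase C. Lyn also phosphorylates inhibitory co-receptors that recruit the phosphatase Ptpn6 (SHP-1), which dampens the signal. The same kinases serve the pre-B cell receptor while B cells develop in the marrow, and Mef2c, a MADS box transcription factor, is itself active in B cells after receptor stimulation.

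Levels below are processed signals divided by the 75th percentile of the array they come from, and differences are log2 values of these levels, KO minus WT or spleen minus marrow. The scanner's own error of such a difference was 0.204 to 0.206 for the probes that stand for a gene. It combines the errors the scanner software gives for both arrays and is nearly the same for every gene. Variation between animals or between repeated arrays is not part of it. Levels of different probes are not compared as amounts of RNA, since probes differ in brightness. Levels summed over a marker list therefore lean on its brightest probes. Probe coordinates are those of build mm9 as the scanner files give them. The spleen KO array stood apart from the others before any gene was considered. Its 75th percentile was 520, against 961 to 1008 on the other 3 arrays, and 59.3% of its gene spots were well above background, against 69.1% to 71.98%. Rn18s, the 18S ribosomal RNA gene, had differences of -2.43 in the marrow and -7.71 in the spleen by its brighter probe. Mef2c itself was not lower on the arrays labelled KO by its brighter probe, with differences of 0.32 in the marrow and 1.37 in the spleen, while its dimmer probe gave 0.36 and -0.61. Every direction below therefore rests on the labels. A probe outside the deleted part would say nothing of the deletion. Both marrow arrays shared slide 1 and both spleen arrays slide 2, so slide and tissue cannot be told apart, nor can genotype and the position on the slide.

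All 10 B cell markers of a list (among them Cd79a, Ms4a1 and Pax5) were well above background on all 4 arrays, which fits the label, but markers of other cells were present too. Of 12 neutrophil markers such as S100a8 and Camp, 11 were at least 2-fold higher in marrow KO and 0 lower, and their summed level was 1445 on marrow KO and 441 on marrow WT. In the spleen 6 of 11 measured neutrophil markers were higher and 1 lower, with a summed level of 146 on spleen KO and 11.3 on spleen WT. Of 12 macrophage and monocyte markers, 3 (Itgam, Lyz2 and Cd14) were higher and 1 (Cd163) lower in marrow KO, with a median difference of 0.21. Their summed level was 311 on marrow KO and 108 on marrow WT, of which Lyz2 alone made 284 and 89.8. In spleen KO 7 were higher and 1 lower (summed level 181 on spleen KO and 67.0 on spleen WT). The neutrophil marker Elane was not well above background on either spleen array, and Mmp9 was not on spleen KO. Platelet markers were higher for 4 of 7 in marrow KO and 1 of 7 in spleen KO, with 0 lower in either. Of erythroid markers 1 of 5 measured was lower in marrow KO and 4 of 4 were higher in spleen KO. NK cell markers were higher for 1 and lower for 0 of 8 in marrow KO, and higher for 2 and lower for 2 in spleen KO. Plasmacytoid dendritic cell markers were higher for 0 and lower for 0 of 6 in marrow KO, and higher for 2 and lower for 1 in spleen KO. Of 6 plasma cell markers 2 were lower in marrow KO and 3 in spleen KO, with 0 higher. The B cell markers themselves were lower for 4 and higher for 0 of 10 in marrow KO (summed level 345 on marrow KO and 483 on marrow WT), and lower for 4 and higher for 2 in spleen KO (946 on spleen KO and 664 on spleen WT). The part of these cells in the results below was not tested, and fewer cells of a type and less RNA per cell cannot be told apart in such bulk samples.

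By brightest probes, Blk had the largest difference of the 10 genes between the genotypes in each tissue, and it was lower in KO in both. Blk is a Src family kinase whose expression is largely limited to the B lineage, and it acts beside Lyn and Fyn at the receptor. The one probe with its name spans an exon junction of reference transcript NM_007549 on the minus strand of chromosome 14 and is shown because the values of Blk rest on it alone. It reads, 5′ to 3′ and in the direction of the transcript:
Blk probe, chr14:63997333-63998470 (mm9, minus strand): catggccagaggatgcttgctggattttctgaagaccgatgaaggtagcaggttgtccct
The probe of 60 bases begins at position 1343 of the transcript, and the interval of 1138 bases holds an intron as well as the probe.

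The level of Blk was 1.01 on marrow KO (signal 1014) and 3.11 on marrow WT (signal 2990). In the spleen its level was 0.880 on spleen KO (signal 458) and 4.37 on spleen WT (signal 4242). Both KO arrays thus lay below both WT arrays. The difference was -1.63 in the marrow (3.10-fold lower in KO) and -2.31 in the spleen (4.97-fold lower in KO), many times the scanner's error of 0.204. Relative to the median gene of each comparison, which stood at -0.06 in the marrow and 0.27 in the spleen, these differences were -1.57 and -2.59. They kept their sign and stayed past 2-fold with normexp background correction, quantile normalization, cyclic loess and median scaling, between -1.57 and -1.64 in the marrow and between -1.89 and -2.55 in the spleen.

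**Figure D1:**
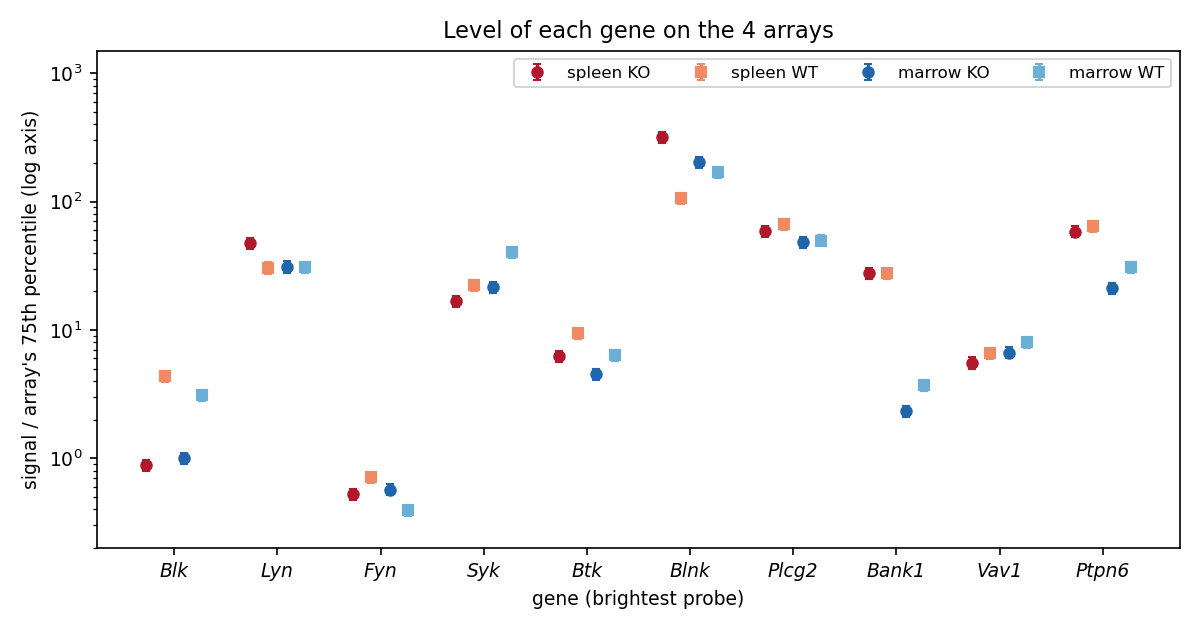
Level of each gene by its brightest probe, as the signal over the array's 75th percentile on a log axis, with 1 point for each array and bars for the scanner's error. Circles are KO arrays and squares are WT arrays, red for spleen and blue for marrow. For Blk both circles lie near 1 and both squares above 3, for Bank1 and Ptpn6 the red points lie above the blue ones, and Blnk is highest on spleen KO.

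The other 2 Src family kinases had other values than Blk, and neither was 2-fold apart with 75th percentile scaling. Lyn is the main Src family kinase of B cells and both starts and restrains receptor signals. By its brightest probe, at chr4:3717973-3718032, its level was 31.1 on marrow KO and 30.8 on marrow WT, and 47.5 on spleen KO and 30.6 on spleen WT. The marrow difference of 0.01 was within the scanner's error. The spleen difference of 0.64 was beyond that error but changed sign with the scaling, to -0.13 under quantile normalization and -0.30 under cyclic loess, and was past 2-fold, at 1.05, under median scaling. The marrow value changed sign too, to -0.13 and -0.06. A further Lyn probe lies 1068 bases upstream in the same transcript (NM_010747, chromosome 4, plus strand), and both Lyn probes are 60 bases long. Its sequence is given because it did not give the same spleen direction:
Lyn upstream probe, chr4:3716905-3716964 (mm9, plus strand): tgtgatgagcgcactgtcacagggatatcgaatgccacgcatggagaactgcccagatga
By this probe Lyn had a level of 3.33 on marrow KO against 5.15 on marrow WT (difference -0.63), and of 4.17 on spleen KO and 4.97 on spleen WT, a difference of -0.25.

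Fyn, which is better known from T cells but is also found at the B cell receptor, had opposite signs in the tissues. Its level was 0.569 on marrow KO and 0.396 on marrow WT, and 0.526 on spleen KO and 0.708 on spleen WT. The differences were 0.53 in the marrow and -0.43 in the spleen. Both are larger than the spread of the probe's 10 repeated spots, which had SDs of 0.0425 to 0.0569 on the log2 scale within an array. Under median scaling the spleen difference was -0.01. The probe, at chr10:39284539-39284598 on the plus strand, was designed on an mRNA record for Fyn(T), the form of T cells. Whether it tells this form from other forms of Fyn was not tested. T cell markers are given beside it. Of 9 measured T cell markers 3 were at least 2-fold higher and 1 lower in marrow KO (median -0.13). The highest there were Cd3d at 3.78 and Thy1 at 1.41, and the lowest Cd2 at -1.34 and Cd3e at -0.62. In spleen KO 2 of 9 were higher and 1 lower, and Cd3g differed by 1.40 and Cd3e by -1.16. The summed T cell level was 5.50 on marrow KO and 5.68 on marrow WT, and 15.7 on spleen KO and 16.1 on spleen WT. Cd2 had the highest level of the listed markers on every array but marrow KO, so these sums lean on that gene. In the marrow its level was 1.74 for KO against 4.41 for WT, and in the spleen 10.1 against 11.4. Cd3d went the other way in the marrow, at 2.26 for KO against 0.165 for WT. Near-equal sums therefore do not show equal T cell content. T cells' part in the Fyn values was not tested.

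Syk, the kinase that binds the phosphorylated receptor chains, was lower in KO than WT in each tissue by its probe at chr13:52743661-52743720 (plus strand). Its level was 21.4 on marrow KO and 40.2 on marrow WT (difference -0.91, 1.88-fold lower), and 16.8 on spleen KO and 22.3 on spleen WT, a difference of -0.41. The highest of the 4 arrays was marrow WT and the lowest spleen KO. The marrow value lay between -0.89 and -1.07 over the scalings. The spleen value ranged from -1.25 under cyclic loess to 0.01 under median scaling, so its direction depends on the scaling.

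Btk, the Tec family kinase whose loss in humans causes X-linked agammaglobulinaemia, was also lower in KO than WT in both tissues. Its level was 4.54 on marrow KO and 6.38 on marrow WT, and 6.28 on spleen KO and 9.39 on spleen WT. The differences were -0.49 and -0.58, and kept their sign under every scaling (between -0.47 and -0.55 in the marrow, and between -0.16 and -1.13 in the spleen). The 9 or 10 usable spots of the probe had SDs of 0.0295 to 0.0447 on the log2 scale, so spotting error is small beside these values. Btk lies on the X chromosome (its probe at chrX:131077061-131077120, minus strand), and the sex of the animals is not given. For Ddx3y, a gene of the Y chromosome, the signal was 699 on marrow KO and 2005 on marrow WT. On the spleen arrays it was 3.97 on spleen KO, where it was not well above background, and 1193 on spleen WT. Kdm5d and Eif2s3y, also of the Y chromosome, were likewise well above background on every array but spleen KO. The sex-linked X chromosome gene Xist was well above background on every array by each of its probes. By the brightest of them its signal was 14461 on marrow KO and 9883 on marrow WT, and 17206 on spleen KO and 24195 on spleen WT. The part of sex in the Btk values, or in any other KO minus WT difference given here, was not tested.

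By brightest probes and the scaling used for levels, Blnk alone of the group was at least 2-fold higher in KO in a tissue. That tissue was the spleen, where 19.8% of all genes were also at least 2-fold higher. A count of 1 in 10 does not stand apart from this share. The count was 0 under quantile normalization and cyclic loess, and 2 under median scaling, where Lyn was past 2-fold as well. Blnk (SLP-65) is the scaffold on which Btk and Plcg2 meet. Its level was 319 on spleen KO against 106 on spleen WT, and in the marrow it was 203 on KO against 170 on WT. Spleen KO was the highest and spleen WT the lowest of the 4 arrays. The spleen difference was 1.59 (3.01-fold higher in KO), or 1.32 relative to the median gene, and the marrow difference was 0.26. The size in the spleen depended strongly on the scaling, from 0.28 under cyclic loess and 0.81 under quantile normalization to 2.01 under median scaling, while the sign stayed the same. The Blnk probe begins at position 2026 of its transcript (NM_008528, chr19:41003428-41003487 on the minus strand of mm9), and it is the one probe with this gene name.

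Plcg2, the phospholipase that Btk activates, was nearly level between the genotypes by its probe at chr8:120158980-120159037 (plus strand). Its level was 48.5 on marrow KO and 49.7 on marrow WT (difference -0.04), and 58.9 on spleen KO and 67.1 on spleen WT, a difference of -0.19. Both differences were within the scanner's error, and the spleen value ranged from -1.23 under cyclic loess to 0.23 under median scaling. Vav1, a guanine nucleotide exchange factor for Rac that Syk phosphorylates, differed little as well. Its brightest probe had a level of 6.65 on marrow KO against 7.995 on marrow WT, and of 5.55 on spleen KO and 6.57 on spleen WT. The differences were -0.26 and -0.24, and the spleen value turned to 0.17 under median scaling. A further Vav1 probe gave -0.44 in the marrow and -0.57 in the spleen, the same directions with larger sizes.

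Bank1 gave different spleen results by its probes. Bank1 is a B cell scaffold that links Lyn to the calcium channel of the endoplasmic reticulum. By the brightest probe, at chr3:135716867-135716926, its level was 2.33 on marrow KO and 3.69 on marrow WT (difference -0.67). The same probe had 27.5 on spleen KO and 27.6 on spleen WT, a difference of -0.0025. The upstream probe, which spans a junction 1376 bases earlier in the same transcript (NM_001033350), had 0.252 on marrow KO and 0.423 on marrow WT (difference -0.75). It had 1.80 on spleen KO and 4.36 on spleen WT, a difference of -1.28 (2.42-fold lower in KO). The remaining probe, from cDNA clone AK041071 and lying inside the genomic interval of the junction probe, was well above background only on spleen WT. Its signal there was 141, and its level was at least 4.48-fold lower on spleen KO than on spleen WT. This bound is taken against the lowest level well above background on spleen KO. Whether this probe reads the same mRNA as the other Bank1 probes was not tested. The spleen value for Bank1 thus differed between probes. That of the brightest probe also moved with the scaling, to -0.70 under quantile normalization, -0.62 under cyclic loess and 0.41 under median scaling. The junction probe that gave the lower value reads:
Bank1 upstream probe, chr3:135766871-135876831 (mm9, minus strand): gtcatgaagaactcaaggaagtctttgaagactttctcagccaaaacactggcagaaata

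Ptpn6, the phosphatase SHP-1, also gave different spleen values by its probes. Its brightest probe, at position 1943 of NM_001077705 (chr6:124671114-124671173, minus strand), had a level of 21.1 on marrow KO against 31.0 on marrow WT (difference -0.55). It had 58.5 on spleen KO and 64.8 on spleen WT, a difference of -0.15, within the scanner's error. That spleen value was -1.11 under cyclic loess, -0.73 under quantile normalization and 0.27 under median scaling. The probe near the start of transcript variant 1 (position 116 of NM_013545, chr6:124682988-124683047) had 0.385 on marrow KO and 0.804 on marrow WT (difference -1.06). In the spleen it had 0.397 on spleen KO and 2.33 on spleen WT, a difference of -2.55 (5.87-fold lower in KO). The remaining probe, designed on an mRNA with the insertion of the motheaten viable allele, had differences of 0.11 (marrow) and -1.25 (spleen). These probes lie on different transcript records, so a difference between transcripts and one between positions cannot be told apart here.

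**Figure D2:**
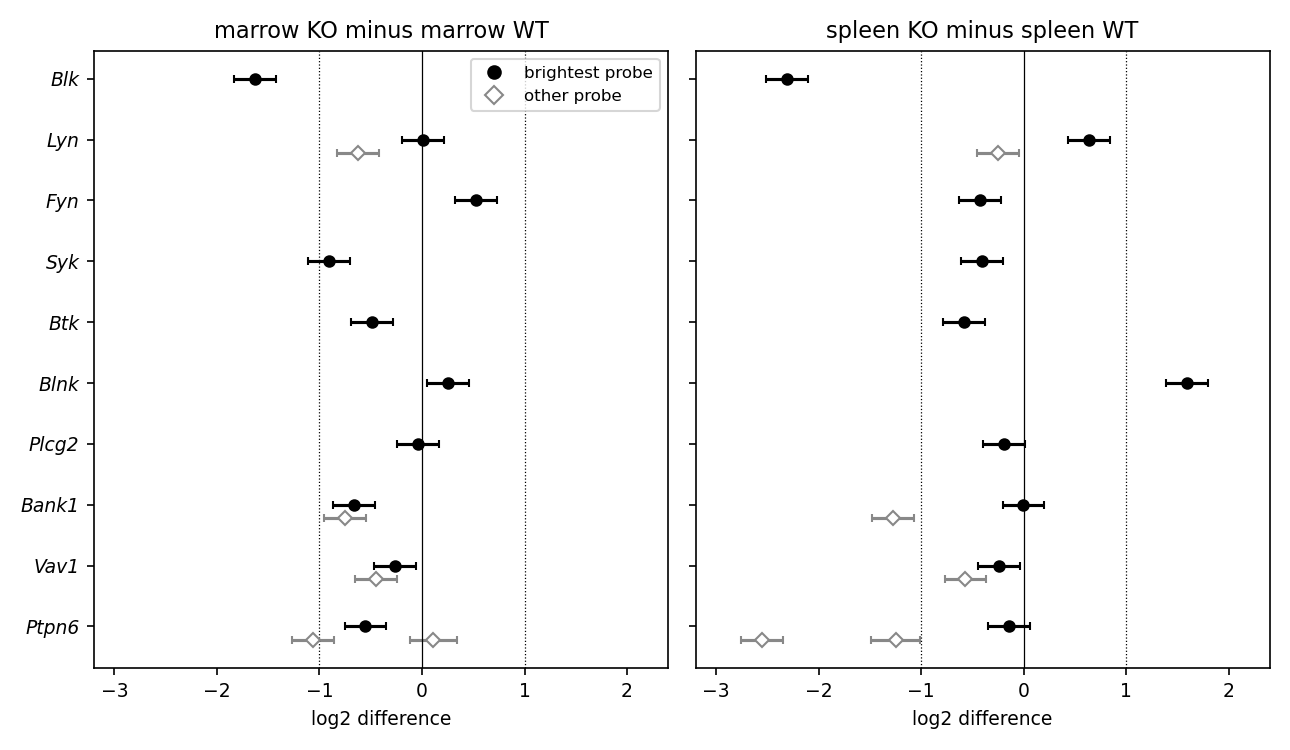
Log2 difference KO minus WT in marrow (left) and spleen (right) for every probe well above background on all 4 arrays, with bars for the scanner's error of a difference. Filled circles are the brightest probe of a gene, open diamonds its other probes, and dotted lines mark 2-fold. Blk lies past the lower line in both tissues, Blnk past the upper line in the spleen, and the open diamonds of Bank1 and Ptpn6 past the lower line in the spleen.

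Counted by the brightest probe, 1 of the 10 genes (Blk) was at least 2-fold lower in marrow KO, beside 4.9% of the 21232 genes measured in the marrow, and 0 were higher, beside 8.35%. The median difference of the group was -0.38, with 7 genes below 0 and 3 above, beside a median of -0.06 over all genes. In spleen KO 1 of 10 was at least 2-fold lower (Blk), beside 14.4% of 19811 genes, and 1 was higher (Blnk), beside 19.8%. The group's median there was -0.22, beside 0.27 over all genes, with 8 genes below 0. With 10 genes, counts of 0 or 1 do not stand apart from these shares. By brightest probes Blk was the only gene of the group at least 2-fold lower in both tissues, which held for 2.04% of the 18983 genes measured in both. Of the dimmer probes, that of Ptpn6 variant 1 was also past 2-fold in both (-1.06 and -2.55).

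The one test across samples was limma's moderated test over all 4 arrays with tissue as a term. It treats marrow and spleen as repeats of 1 genotype effect, and 1 degree of freedom is left for its error. It called 0 of the 10 genes at an adjusted p under 0.05, beside 0.0453% of 22060 genes. Blk had an effect of -1.97 ± 0.55 (SE) in limma, with an unadjusted p of 0.0044 and an adjusted p of 0.223, and was lower in KO in both tissues. It was 1 of 10 genes at an unadjusted p under 0.05, beside 11.3% of all genes. With normexp background correction limma gave Blk an effect of -1.88 and an adjusted p of 0.00175. In that fit all 10 genes had the same SE of 0.44, so it held no error particular to Blk. It also called 630 of 22062 genes, against 10 of 22060 without that correction. Over the alternatives the adjusted p of Blk in limma lay between 0.00175 and 0.486. Blnk had a limma effect of 0.92 ± 0.57 and an adjusted p of 0.586, and Syk of -0.66 ± 0.54 and an adjusted p of 0.688. The other 7 genes had limma effects between -0.54 and 0.32 and adjusted p-values of 0.747 to 0.985. No degree of freedom is left to test whether the genotype effect differs between the tissues, so this was not tested.

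The scaling between arrays mattered far more in the spleen than in the marrow. In the marrow the sign of the difference was the same under all 5 scalings for 9 of the 10 genes, Lyn being the exception. In the spleen it was the same for Blk, Fyn, Btk and Blnk, and it changed for Lyn, Syk, Plcg2, Bank1, Vav1 and Ptpn6. The median of all genes itself shifted in the spleen, from 0.20 under cyclic loess to 0.69 under median scaling.

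**Figure D3:**
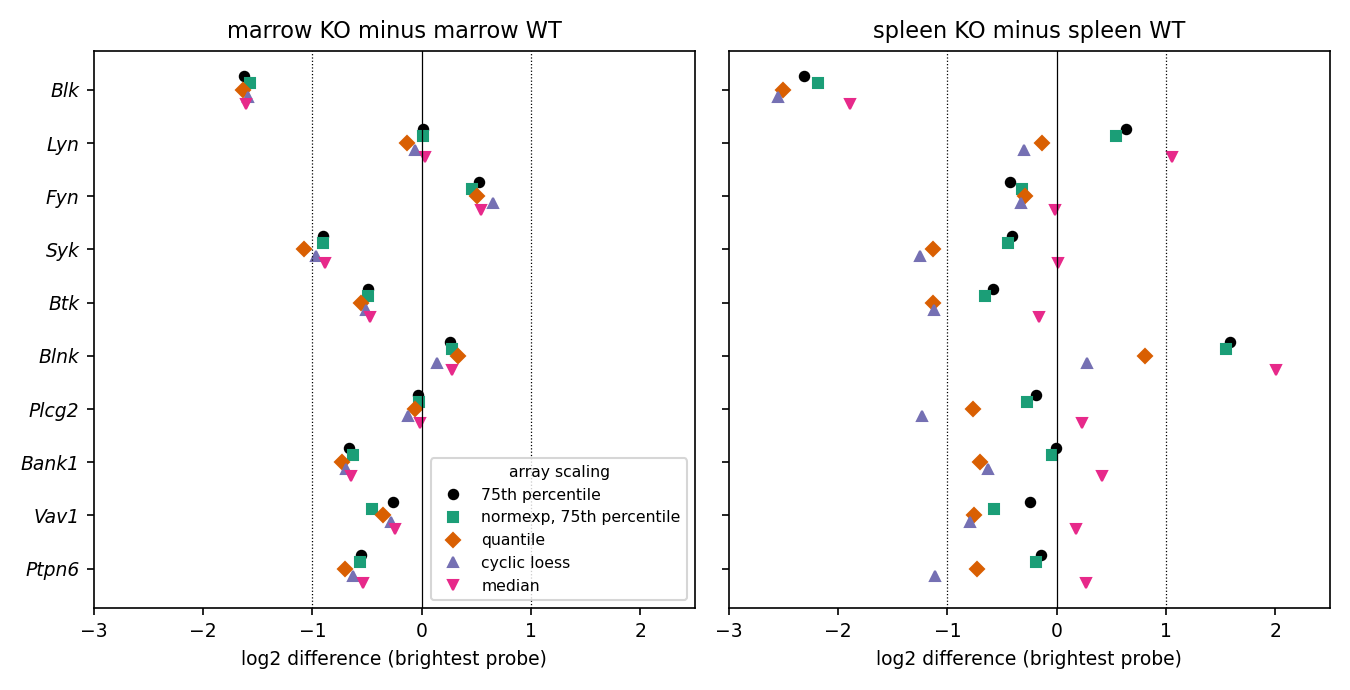
Log2 difference KO minus WT of the brightest probe of each gene under 5 ways of scaling the arrays, marrow on the left and spleen on the right, with dotted lines at 2-fold. In the marrow the 5 symbols of a gene nearly coincide, while in the spleen those of Blnk span 0.28 to 2.01 and those of Lyn -0.30 to 1.05, and Blk stays past the lower line in both.

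For Lyn, Bank1 and Vav1, each with 2 probes on 1 transcript, the upstream probe gave the lower KO minus WT difference in both tissues. Upstream minus downstream was -0.64 in the marrow and -0.89 in the spleen for Lyn, -0.08 and -1.27 for Bank1, and -0.18 and -0.32 for Vav1. For Ptpn6, whose probes lie on different transcripts, the variant 1 probe minus the brightest one gave -0.51 and -2.41. The Ptpn6 probe on the motheaten viable mRNA, which lies between them in the genome, went the other way in the marrow (0.11, against -0.55 for the brightest) and the same way in the spleen (-1.25, against -0.15). The pair in Vav1 is the closest, 301 bases apart in NM_011691 on chromosome 17, and is shown as the pair with the least distance:
Vav1 upstream probe, chr17:57451288-57454690 (mm9, plus strand): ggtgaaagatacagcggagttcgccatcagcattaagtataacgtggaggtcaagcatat
Vav1 downstream probe, chr17:57464127-57464186 (mm9, plus strand): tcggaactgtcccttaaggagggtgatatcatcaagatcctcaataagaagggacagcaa
The same shift was present over all transcripts with 2 probes at least 100 bases apart. Its median was -0.17 over 4022 transcripts in the marrow and -0.54 over 3374 in the spleen, with the upstream probe below the downstream one for 67.4% and 70.7% of them. In the spleen 34.7% of upstream probes were at least 2-fold below their partner, against 7.26% in the marrow. The signs of Lyn, Bank1 and Vav1 are thus those of most transcripts on these arrays. The part of probe position, and of RNA quality, in the values of Blk and Blnk was not tested. Their only probes begin at positions 1343 (Blk) and 2026 (Blnk) of their transcripts. The same limit holds for Fyn, Syk, Btk and Plcg2, which also have 1 probe each.

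**Figure D4:**
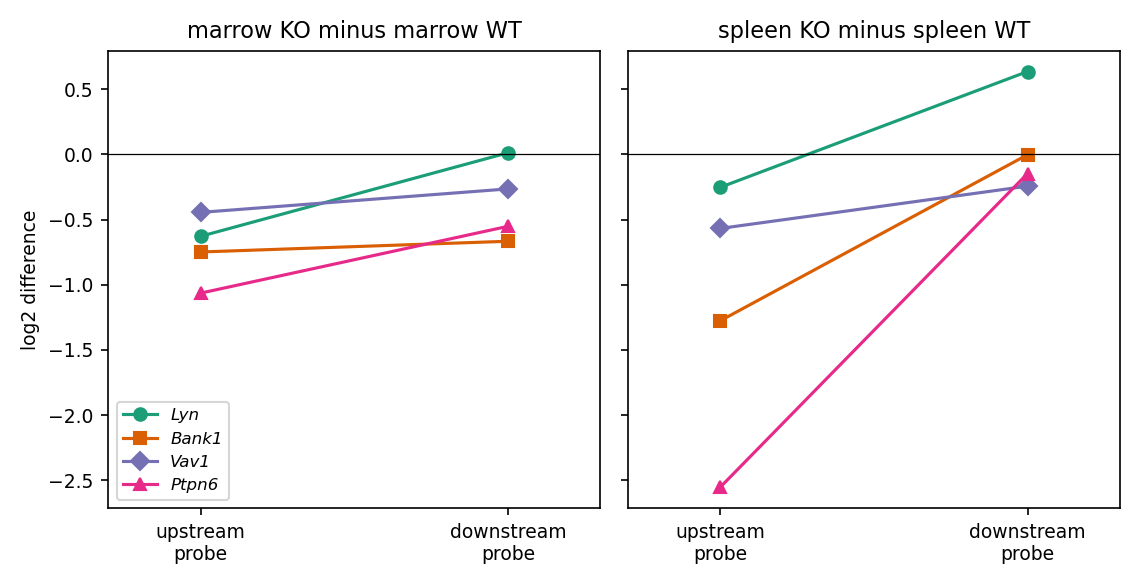
Log2 difference KO minus WT at the upstream and the downstream probe of Lyn, Bank1, Vav1 and Ptpn6, in marrow (left) and spleen (right), with a line for each gene. The Ptpn6 line joins the variant 1 and the brightest probe, and the remaining Ptpn6 probe (0.11 in the marrow and -1.25 in the spleen) is not drawn. In each line drawn the upstream point is the lower one, by the least for Bank1 in the marrow (upstream minus downstream -0.08) and by the most for Ptpn6 in the spleen (-2.41).

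Between the tissues, Bank1 and Ptpn6 were the genes of the group at least 2-fold higher in spleen than in marrow by their brightest probes, in both genotypes. By its brightest probe Bank1 was 11.8-fold higher on spleen KO than on marrow KO (27.5 and 2.33) and 7.47-fold higher on spleen WT than on marrow WT (27.6 and 3.69). The upstream probe gave differences of 2.84 in KO and 3.37 in WT, the same direction. The probe from the cDNA clone was at least 9.49-fold higher on spleen WT than on marrow WT. Ptpn6 was 2.77-fold higher on spleen KO than on marrow KO, and 2.09-fold higher on spleen WT than on marrow WT. By its probe on variant 1, however, the difference was 0.05 in KO and 1.53 in WT. Of the 10 genes, 2 were thus at least 2-fold higher in spleen in KO, beside 15.7% of 20320 genes, and 2 in WT, beside 15.5% of 21447. None was 2-fold lower, beside 13.9% in KO and 15.7% in WT, and the share of all genes 2-fold apart either way was 29.6% in KO and 31.2% in WT. Slide and tissue coincide, so neither difference can be told apart from the slide.

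The remaining genes lay within 2-fold between the tissues. Syk was lower in spleen, by differences of -0.35 in KO and -0.85 in WT, and Vav1 by -0.26 and -0.28. Btk was higher, by 0.47 and 0.56, and so was Plcg2, by 0.28 and 0.43. Signs differed between the genotypes for Blk (-0.19 in KO and 0.49 in WT), Lyn (0.61 and -0.01), Fyn (-0.11 and 0.84) and Blnk (0.65 and -0.68). Under other scalings the KO sign changed for Blk, Fyn, Blnk and Plcg2, and the WT sign for Lyn. The median over the 10 genes was 0.37 in KO, beside 0.19 over all genes, and 0.46 in WT, beside -0.07. The tissues also differed in other cells: the summed neutrophil level was 146 on spleen KO and 1445 on marrow KO, and 11.3 on spleen WT and 441 on marrow WT. Platelet markers were at least 2-fold lower in spleen for 5 of 7 in KO and 6 of 7 in WT. Macrophage and monocyte markers were higher in spleen for 8 of 12 in KO and 7 of 12 in WT, with 2 lower in each. T cell markers were higher for 4 and lower for 1 of 8 measured in KO, and higher for 7 and lower for 0 of 10 in WT. Their summed level was 15.7 on spleen KO against 5.50 on marrow KO, and 16.1 on spleen WT against 5.68 on marrow WT. Much of these sums was Cd2, at 10.1 against 1.74 in KO and 11.4 against 4.41 in WT. The part of all these other cells in the values of the 10 genes was not tested.

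**Figure D5:**
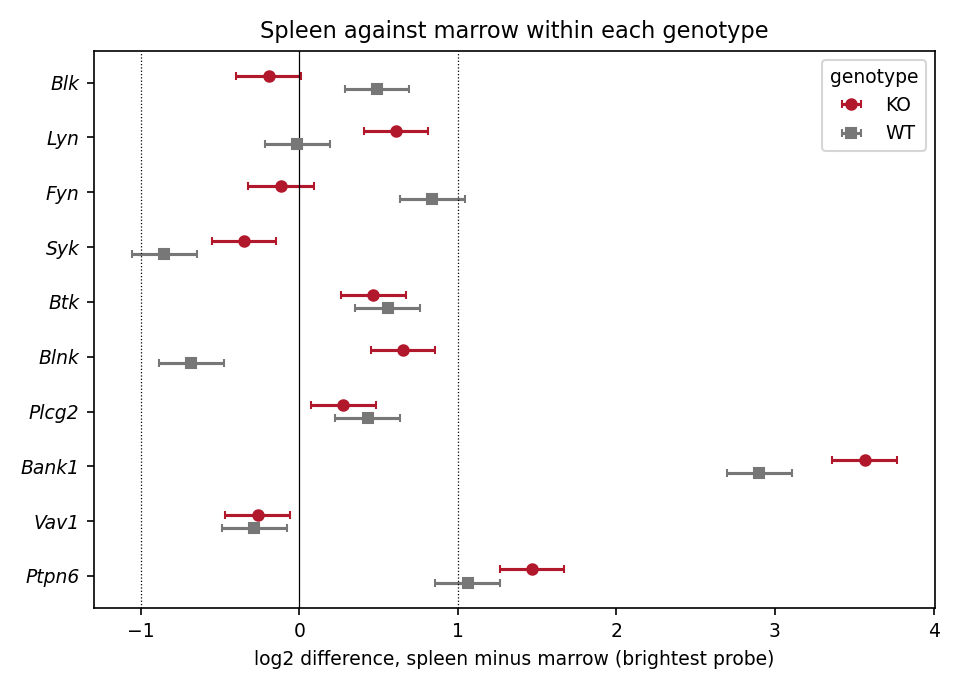
Log2 difference spleen minus marrow of the brightest probe of each gene, KO as red circles above WT as grey squares, with bars for the scanner's error and dotted lines at 2-fold. Bank1 (3.57 in KO and 2.90 in WT) and Ptpn6 (1.47 and 1.06) lie past the upper line, and Blnk and Lyn lie further right in KO than in WT.

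The wider pathway was described from 5 lists of genes around these 10. Of the 68 genes in them, limma called 0 at an adjusted p under 0.05, and the lowest adjusted p was 0.163. The counts below stand beside 4.9% of all genes lower and 8.35% higher in marrow KO (median -0.06), and 14.4% lower and 19.8% higher in spleen KO (median 0.27). The receptor and its co-receptors held genes that, like Blk, were at least 2-fold lower in KO in both tissues, namely Cd79a and Cd22, beside 2.04% of all genes. Of 11, 4 were at least 2-fold lower and 2 higher in marrow KO (median -0.34), and 2 lower and 3 higher in spleen KO (median 0.30). Cd79a, a signalling chain of the receptor and so a substrate of the Src family kinases, differed by -1.87 in the marrow and -2.46 in the spleen. Cd22, an inhibitory co-receptor that Lyn phosphorylates and Ptpn6 binds, differed by -2.43 and -2.24. Both had an unadjusted limma p under 0.05. At the other end stood Pirb, an inhibitory receptor also found on myeloid cells, at 2.14 in the marrow, and Cd5 at 1.95, while in the spleen the inhibitory Fc receptor Fcgr2b stood at 1.98 and Cd38 at 1.27.

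Among 11 other Src, Syk and Tec family kinases 2 were higher and 0 lower in marrow KO (median -0.04). These were Bmx at 4.24 and Fgr, a Src family kinase of myeloid cells, at 2.69, and the lowest were Csk, which holds Src kinases inactive, at -0.41, and Src at -0.30. In spleen KO 1 of 9 measured was higher, Txk at 1.26, and Zap70, the Syk relative of T cells, was lowest at -0.97, with Csk at -0.61 (median 0.32). The 2 kinases higher in marrow KO stand beside the neutrophil markers given above, whose part in them was not tested.

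Of 16 other adaptors, 3 were higher and 1 lower in marrow KO (median -0.05). Lcp2 (SLP-76), the counterpart of Blnk in T cells and myeloid cells, stood at 2.38 and Dok2 at 2.22, while Lat2 (NTAL) stood at -1.75 and Pik3ap1 (BCAP), which couples the receptor to PI3 kinase, at -0.79. In spleen KO 4 of 15 measured were higher and 1 lower (median 0.03). Nck1 stood highest at 2.13 and Gab2 at a lower bound of 1.53, and Pik3ap1 was lowest at -1.81, followed by Dok3 at -0.84. Of 10 other phosphatases and negative regulators, 1 was higher and 0 lower in marrow KO (median 0.17), Ubash3b (Sts-1), a regulator of receptor-bound kinases, at 2.13. Inpp5d (SHIP-1) stood at 0.35, Cblb at -0.31 and Ubash3a at -0.35. In spleen KO 5 of 9 measured were higher and 2 lower (median 1.09), beside 19.8% and 14.4% of all genes (median 0.27). The ubiquitin ligases Cbl and Cblb stood at -2.46 and -2.002, and Ptpn22 at 2.05 and Ubash3b at 1.92.

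Among the listed effectors of the pathway, 2-fold differences were fewer in the marrow than in the spleen, as over all genes. Of all genes 13.3% were at least 2-fold apart either way in the marrow and 34.3% in the spleen. Not all of these 20 effectors act downstream of Plcg2, since Plcg1, Vav2 and Vav3 are relatives of Plcg2 and Vav1. In the marrow 0 of the 20 were 2-fold apart either way (median -0.12). They ran from Plcg1 at -0.54 and Prkcd at -0.52 to Orai1 at 0.36 and Vav3 at 0.50. In spleen KO 5 were higher and 3 lower (median 0.44). Orai1, the pore of the store-operated calcium channel, stood at -2.13 and Nfatc1, a calcium-regulated transcription factor, at -1.41. Itpr2, a calcium release channel, stood at 2.10 and Bcl10, an adaptor of the NF-kB branch, at 1.76.

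Blk's profile over the 4 arrays was set against those of the 16517 genes well above background on all of them, as the Euclidean distance between log2 profiles centred on their own mean. The nearest were Clk2 at 0.31, Ltk at 0.34 and the cDNA clone AK043151 at 0.35, and 20 genes lay within 0.5. Their KO minus WT differences were -1.21 in the marrow and -2.17 in the spleen for Clk2, -1.45 and -2.37 for Ltk, and -1.30 and -2.45 for AK043151. With 4 points a profile, this likeness only describes these arrays.

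The promoters of these genes were searched for short motifs in RefSeq windows of 300 bases of build GRCm38.p6, from 250 before to 50 after the transcript start, on both strands. There were 9 windows for 8 of the 10 genes, and Blk and Lyn had none in the table. The MEF2 consensus was in 0 of the 9, beside 3.19% of all 32851 windows. The EBF1 motif TCCCNNGGGA was in 0, beside 0.904%, the octamer ATGCAAAT in 1 (Blnk), beside 1.74%, and the Ets motif AGGAAGT in 3 (Blnk, Vav1 and Ptpn6), beside 9.35%. None of the matches overlapped another. The 250 bases before the start of Blnk, the gene higher in spleen KO, hold an Ets match that begins 202 bases before the start and an octamer match on the opposite strand that begins 130 bases before it, both in capitals:
Blnk promoter, chr19:40994222-40994471 (GRCm38.p6, minus strand): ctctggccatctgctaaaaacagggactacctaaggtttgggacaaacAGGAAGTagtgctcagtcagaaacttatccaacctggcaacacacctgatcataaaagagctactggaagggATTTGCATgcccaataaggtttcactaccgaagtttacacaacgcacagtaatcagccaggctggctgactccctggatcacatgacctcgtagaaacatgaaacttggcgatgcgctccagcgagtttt
A match is a description of the letters in this window, not a binding site.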

How the data were processed

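RNA of B220 B cells was measured on 4 Agilent 1-colour arrays, 1 for each tissue and genotype, with groups taken from the labels. The deposited files hold intensity values on a linear scale, made with Agilent Feature Extraction 10.5.1.1 on probes of 60 bases placed on build mm9, per the file headers, with background corrected and no scaling between arrays recorded. At all 45018 spots the intensity in the deposited series matrix was identical, so that its scale is linear and uncentred, with medians of 85.4 (marrow KO), 82.7 (marrow WT), 37.9 (spleen KO) and 93.0 (spleen WT).

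From these, log2 signals of the 43379 gene spots were scaled by subtracting each array's 75th percentile. Outlier spots (72 to 85 an array) were left out, 0 were saturated, and spots of a probe were averaged. A gene is represented by its brightest probe over 4 arrays. It was measured in a comparison when the scanner software marked it as well above background on either array. Where it was so marked on 1 array only, the difference is a bound: the dim side is set to the lowest marked level of its array, or to the probe's own level if that is higher. Of 41174 probes, 25097 were named by accession through RefSeq names of GRCm38.p6, 6333 carry a current symbol and 9744 keep another name.

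Differences within a tissue or genotype have no test. The genotype effect was tested with limma 3.58.1 in R 4.3.3, with tissue (and so slide) as a term. It was tested over all genes above background on at least 1 array, adjusted by Benjamini-Hochberg at 0.05. The fit was checked on simulated data, with changes equal in both tissues and larger than the limma effects of the 10 genes. That check does not cover changes of the size found here. Nothing in the labels says which samples share animals. Alternatives were normexp with an offset of 50, quantile normalization, cyclic loess, median scaling, no filter, the median over probes, the series matrix, a 1.5-fold threshold and, chosen after seeing the data, the most upstream or the most downstream probe. The 10 genes, the 5 pathway and 9 marker lists and the tests were chosen with earlier results of these data known. Named genes are all 10, the highest and lowest 2 of each pathway list, and the 3 genes nearest in profile to a gene 2-fold apart in the same direction in both tissues; marker genes were named after their values were seen. A gene that the rule names is not reported here. Python 3.11.15 with pandas 2.3.3 and numpy 2.4.6 was used for counts.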

Additional observations from a re-analysis of the deposited data

Results flagged for a closer look

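Fyn lay on opposite sides of 0 in the tissues, at 0.53 in the marrow and -0.43 in the spleen (log2, KO minus WT), with 1 array a group. The difference between the tissues was not tested.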

How the results depend on the processing

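No paired analysis was possible because each group has 1 array and the labels carry no replicate numbers; for the same reason no array could be left out of the limma fit. Tissue and slide coincide, so the tissue term already is the slide block. In marrow KO the count of genes at least 2-fold lower (1 in the report) was 2 under quantile normalization, with the median over probes and with the most upstream probe, and 3 at 1.5-fold. In spleen KO that count (1) was 3 under quantile normalization, with the median over probes and with the most upstream probe, and 5 under cyclic loess. The count higher in spleen KO (1) was 0 under quantile normalization and cyclic loess and 2 under median scaling and at 1.5-fold. The spleen median of -0.22 was -0.74 under quantile normalization, -0.96 under cyclic loess, 0.20 under median scaling and -0.50 with the most upstream probe. Between tissues in KO, the count higher in spleen (2) was 1 under cyclic loess, with the median over probes and with the most upstream probe, and 4 at 1.5-fold. The KO median of 0.37 was -0.062 under quantile normalization, -0.15 under cyclic loess, 0.60 under median scaling, and 0.16 with the median over probes and with the most upstream probe. In WT the count higher in spleen (2) was 1 under median scaling, the count lower (0) was 1 under median scaling and 2 at 1.5-fold, and the median of 0.46 was 0.70 under cyclic loess. In limma the count of 0 was 1 with normexp correction (Blk). The limma effect of Lyn was -0.13 under quantile normalization, -0.18 under cyclic loess and -0.058 with the median over probes, and that of Plcg2 was 0.11 under median scaling. The causes were not tested. Over all genes limma called between 0 (cyclic loess) and 630 (normexp) against 10. The share of 2-fold genes that were higher was 63.0% in marrow KO (75.2% with normexp, 74.9% under cyclic loess, 52.0% with no filter) and 57.9% in spleen KO (69.9% with normexp, 79.7% under median scaling, 47.2% with the median over probes). Between tissues it was 53.1% in KO and 49.6% in WT, and 65.1% and 38.9% under median scaling. Signal over background limits most the Bank1 probe from a cDNA clone, which gives only bounds.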
